A study of Mus musculus with 21 samples.

Results

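The genes described here are 10 guidance and migration genes of the embryonic forebrain: the ligand genes Slit1 and Slit2 and the receptor genes Robo1, Robo2, Dcc, Nrp1, Nrp2, Cxcr4, Erbb4 and Epha5. Every peak or region whose summit lay in the body of one of these genes or within 50 kb of it was taken, by mm10 coordinates and RefSeq gene models, which gave 397 of the 92305 peaks and regions in the 10 deposited lists (0.430%). Of these, 392 were peaks of chromatin immunoprecipitation sequencing (ChIP-seq) and 5 were regions of differing accessibility. All 10 genes had at least 1 peak.

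The tissue was the ganglionic eminences, the ventral forebrain primordium labelled basal ganglia, of CD1 mouse embryos. ChIP-seq of 6 subunits of NuRD, a nucleosome remodelling and histone deacetylase complex, was done at E13.5 in embryos for which the labels give no mutation, with 1 library per subunit and 3 input libraries. Accessibility was measured by ATAC-seq at E12.5 in wild-type (WT) embryos and in embryos lacking Dlx1 and Dlx2 in both copies (KO), with 3 embryos per genotype in each of 2 cell fractions. FTpos cells are those of the ventricular zone and FTneg cells those of the subventricular and mantle zones, so each fraction mixes cell types. Fewer cells of a type and less open chromatin per cell cannot be told apart in such bulk samples. Each accessibility list compares the genotypes over their embryos together: KO-higher regions were more open in the KO, WT-higher regions less open.

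No list has a replicate and no read depth was given, so no test was made and every comparison is a description. A ChIP list had between 5517 and 29762 peaks. In FTneg cells 727 regions were KO-higher and 53 WT-higher, and in FTpos cells 12 were KO-higher and 33 WT-higher. Names and labels disagree for 3 ChIP samples: the list of the CHD4 sample is named HDAC1, that of the HDAC1 sample HDAC2 and that of the HDAC2 sample CHD4. These lists are called CHD4-labelled, HDAC1-labelled and HDAC2-labelled, and statements on them hold for the list, not for the protein. Peak lists hold no expression, and peaks at marker genes do not show which cell types were present. Peaks of at least 1 list reached within 1 kb of the starts of 11 of 11 ganglionic eminence marker genes and 4 of 5 cortical glutamatergic ones. They did so at 1 of 5 endothelial and 0 of 5 microglial marker genes, against 58.9% of all protein-coding genes.

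Guidance receptors read cues that attract or repel growing axons and migrating neurons. SLIT proteins are secreted ligands of the ROBO receptors and mostly repel, DCC is a receptor for netrin, and the neuropilins NRP1 and NRP2 bind secreted semaphorins. CXCR4 is the receptor for the chemokine CXCL12, ERBB4 is a receptor tyrosine kinase for neuregulins, and EPHA5 is one for A-type ephrins. Interneurons born in the ganglionic eminences use these systems on their way to the cortex, and DLX1 and DLX2 are homeodomain transcription factors needed for that migration. NuRD joins a CHD4 remodelling ATPase, the deacetylases HDAC1 and HDAC2, an MBD protein such as MBD3 and the histone-binding proteins RBBP4 and RBBP7, and it is known mainly as a corepressor.

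The promoters of 5 of these genes are shown for their motif matches and for the number of ChIP lists with a peak over them, which was 5 at Nrp1, 4 at Slit2, 3 at Epha5 and Cxcr4 and 2 at the inner start of Robo2. RefSeq (GRCm38.p6, the assembly of mm10) had promoters for 8 of the 10 genes, each running from 250 bases before a transcription start to 50 bases after it. Capitals mark matches, on either strand, to TAATTA (a homeodomain core), CAGCTG (an E-box) or TATAAA (the TATA box). Each is printed 5′ to 3′ on the strand of the gene.
Nrp1, chr8:128358823-128359122, plus strand: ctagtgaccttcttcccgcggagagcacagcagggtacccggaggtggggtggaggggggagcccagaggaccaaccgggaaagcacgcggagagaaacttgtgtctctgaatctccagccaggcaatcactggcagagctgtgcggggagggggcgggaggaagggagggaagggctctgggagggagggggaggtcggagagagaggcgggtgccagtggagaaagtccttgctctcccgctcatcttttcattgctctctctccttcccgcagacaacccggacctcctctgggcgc
Robo2 inner start, chr16:74411776-74412075, minus strand: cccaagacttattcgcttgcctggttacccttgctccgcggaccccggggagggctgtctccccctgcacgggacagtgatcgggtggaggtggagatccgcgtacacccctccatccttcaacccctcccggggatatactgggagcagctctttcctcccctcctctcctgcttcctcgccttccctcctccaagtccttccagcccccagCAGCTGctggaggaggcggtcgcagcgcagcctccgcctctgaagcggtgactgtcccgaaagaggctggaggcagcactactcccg
Epha5, chr5:84417333-84417632, minus strand: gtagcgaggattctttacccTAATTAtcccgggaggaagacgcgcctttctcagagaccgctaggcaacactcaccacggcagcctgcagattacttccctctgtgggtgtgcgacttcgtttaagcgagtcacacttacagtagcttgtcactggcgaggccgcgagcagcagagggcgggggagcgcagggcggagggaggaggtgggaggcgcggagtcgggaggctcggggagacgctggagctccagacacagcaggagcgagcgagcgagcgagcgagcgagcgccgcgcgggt
Slit2, chr5:47982905-47983204, plus strand: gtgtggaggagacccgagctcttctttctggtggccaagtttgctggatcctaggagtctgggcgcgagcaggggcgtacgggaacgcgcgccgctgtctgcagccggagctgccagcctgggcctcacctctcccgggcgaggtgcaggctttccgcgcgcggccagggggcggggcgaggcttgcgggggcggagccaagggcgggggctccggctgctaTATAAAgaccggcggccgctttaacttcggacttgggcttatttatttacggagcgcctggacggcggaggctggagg
Cxcr4, chr1:128592250-128592549, minus strand: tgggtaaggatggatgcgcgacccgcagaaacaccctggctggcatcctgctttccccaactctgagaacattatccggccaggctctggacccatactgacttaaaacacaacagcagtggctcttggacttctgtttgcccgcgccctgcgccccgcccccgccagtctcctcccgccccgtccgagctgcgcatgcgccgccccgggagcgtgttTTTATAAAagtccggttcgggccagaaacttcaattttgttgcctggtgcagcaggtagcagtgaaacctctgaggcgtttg
Epha5 held the only TAATTA among the 10 promoters listed for the 8 genes, 230 bases before the start. TAATTA was in 5.29% of all 32851 promoters of this length. Robo2 held 1 CAGCTG at its inner start (16.3% of all promoters), 37 bases before it. TATAAA was found 28 bases before the Slit2 start and, as a pair of overlapping matches on opposite strands, 32 and 30 bases before the Cxcr4 start (13.6% of all promoters). The Nrp1 promoter held no match to any of the 3 motifs. It contained 14 CpG dinucleotides, against 37 in Nrp2, 30 in Epha5 and Slit2, 20 in Cxcr4, 17 in Erbb4, 15 in Robo1 and a median of 7 over all promoters. The Robo2 promoters held 17 at the inner start and 5 and 9 at the others.

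All 10 genes had a NuRD subunit peak that reached within 1 kb of a start, where 58.9% of 20953 protein-coding genes had one. For Dcc and Slit1, which had no strand in the table used, either annotated end of the gene was taken. The CHD4-labelled and RBBP4 lists were at the start of all 10 genes, against 47.6% and 49.4% of all genes. The HDAC1-labelled list was at 8 (29.5% of all genes) and MBD3 at 7 (24.9%). RBBP7 was at 5 (13.1%) and the HDAC2-labelled list at 2 (10.6%). Thus each of these 10 genes had both a CHD4-labelled and an RBBP4 peak at a start, and the HDAC2-labelled list was at Nrp1 and Robo2 alone. The share of all genes with both lists at a start was not counted.

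Nrp1 and Robo2 were the 2 genes with all 6 lists at a start, against 3.25% of all genes. A list counted if its peak reached within 1 kb of the start, so summits need not coincide. With a summit of each other list required within 250 bp of a CHD4-labelled summit, neither start region counted as one of all 6 lists. At Nrp1 the fold enrichment over input, computed by the authors' caller at each summit, was 6.78 in the CHD4-labelled list, 6.31 in the HDAC1-labelled list, 6.46 in the HDAC2-labelled list, 7.80 in MBD3, 6.15 in RBBP4 and 5.81 in RBBP7. Fold enrichments of different lists are not on a common scale. Within its own list the Nrp1 value was above 94.3% of peaks in the HDAC2-labelled list, 93.6% in MBD3, 81.2% in the HDAC1-labelled list, 76.6% in RBBP4, 67.3% in the CHD4-labelled list and 38.3% in RBBP7. These values are of the highest peak of each list, and all lay in 1 merged region of 3624 bp (chromosome 8, 128356941 to 128360564). Their summits spread over 1691 bp, and the region held further, lower peaks of some lists. Of the lists, 5 overlapped the printed promoter itself, and the HDAC2-labelled peak lay just upstream of it. Robo2 has 3 listed starts. The inner one lay in a region of all 6 lists (chromosome 16, 74410105 to 74413289, fold enrichment 3.67 in the HDAC2-labelled list to 7.40 in the CHD4-labelled list). The printed promoter of that start was overlapped by the HDAC1-labelled and RBBP4 lists only, and the peaks of the other 4 lists lay beside it. The other 2 starts, including the outermost at 75447293, had no peak within 1 kb.

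The ligand genes differed at their starts. Slit2 had a fold enrichment of 5.96 in the CHD4-labelled list, 5.32 in the HDAC1-labelled list, 4.04 in MBD3 and 5.59 in RBBP4, and no RBBP7 or HDAC2-labelled peak. Slit1 had 4.34 in the CHD4-labelled list, 7.73 in RBBP4 and 12.8 in RBBP7 at its high-numbered end, the last above 97.1% of the RBBP7 list. Slit1 was thus the ligand gene with RBBP7 at an end, and Slit2 the one with MBD3.

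Among the receptor genes Robo1 had 3 lists at its listed start, with 7.75 in the CHD4-labelled list, 4.97 in the HDAC1-labelled list and 3.01 in RBBP4. The same 3 lists were at the lower-numbered end of the annotated Robo1 gene, 72027518 on chromosome 16. The netrin receptor gene Dcc had 4 lists at its high-numbered end and none at the other, with 5.12 in the CHD4-labelled list, 3.61 in the HDAC1-labelled list, 4.69 in MBD3 and 5.58 in RBBP4. Nrp2 had 3 lists, with 4.09 in the CHD4-labelled list, 3.65 in MBD3 and 6.25 in RBBP4. Nrp1, which encodes the other neuropilin, had all 6. Cxcr4 had 10.0 in the CHD4-labelled list, the highest of that list among peaks reaching within 1 kb of a start of the 10 genes (above 91.0% of the list). The summit of that peak lay 1.27 kb inside the gene, and the CHD4-labelled peak over the start itself had 8.52 (above 83.2%). Cxcr4 also had 5.27 in the HDAC1-labelled list, 5.14 in RBBP4 and 4.79 in RBBP7. Erbb4 carried the same 4 lists as Slit2 and Dcc, with 7.99 in the CHD4-labelled list, 5.96 in the HDAC1-labelled list, 4.59 in MBD3 and 6.09 in RBBP4. Epha5 had 5 lists, all but the HDAC2-labelled one, from 4.61 in MBD3 to 5.85 in the CHD4-labelled list.

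**Figure D1:**
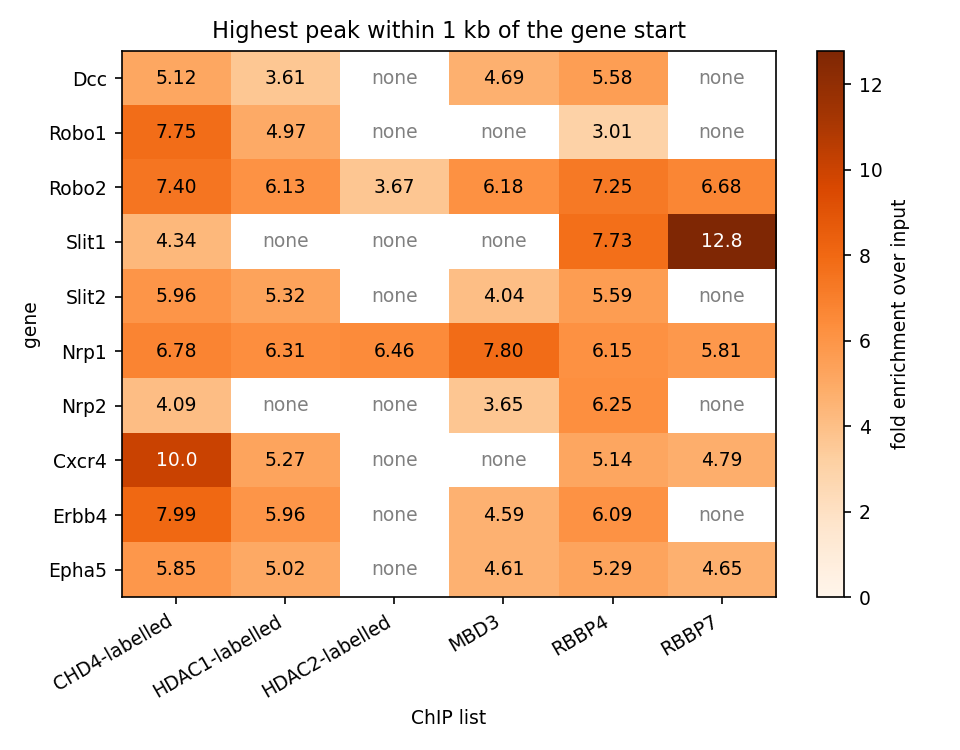
Highest fold enrichment over input (colour and number) of each ChIP list (columns) among peaks that reached within 1 kb of the start of each gene (rows). A list without such a peak has "none", and for Robo2 the start with most lists is shown. Nrp1 and Robo2 have a value in all 6 columns, and the HDAC2-labelled column is empty for the other 8 genes.

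Over whole windows the longest genes had most peaks. Robo2 (1555 kb) had 78 peaks, Robo1 (1020 kb) 73, Erbb4 (1077 kb) 61 and Dcc (1098 kb) 43. Epha5 (363 kb) had 30, Slit1 (149 kb) 29, Nrp1 (147 kb) 27 and Slit2 (326 kb) 19. Nrp2 (115 kb) had 17 and Cxcr4 (4.10 kb) 15. Of the 392 peaks 340 lay in the gene bodies, and all 392 had the guidance gene as their nearest protein-coding gene.

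The RBBP4 and CHD4-labelled lists had a peak in the window of every gene, as did RBBP7. Over all protein-coding genes the share with a peak was 77.0%, 71.1% and 46.5%, and over the 2406 genes of 100 kb or longer 94.1%, 83.6% and 74.1%. MBD3 and the HDAC1-labelled list were in 9 of 10 windows each (54.7% and 56.7% of all genes, 75.9% and 73.8% of long ones). The HDAC2-labelled list was in 7 (33.6% of all genes, 47.3% of long ones). Since 9 of the 10 genes are longer than 100 kb, the shares over long genes are the nearer comparison, and the counts for RBBP4 and the CHD4-labelled list are close to them. Slit1 was the 1 gene without the HDAC1-labelled list, Cxcr4 the 1 without MBD3, and Slit2, Nrp2 and Cxcr4 lacked the HDAC2-labelled list.

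**Figure D2:**
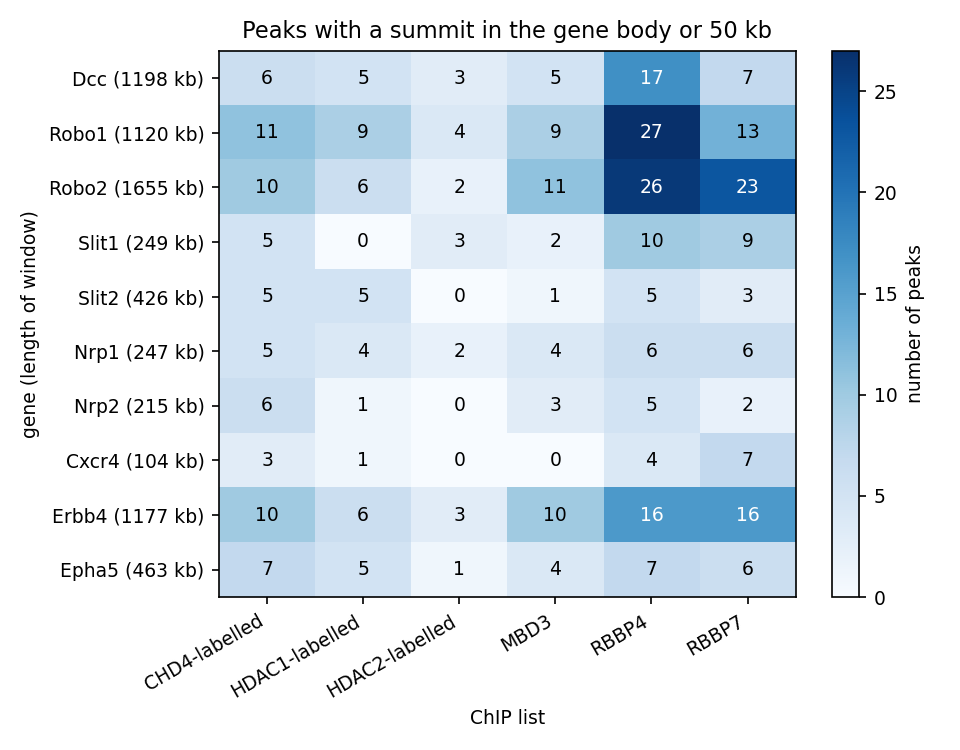
Number of peaks of each ChIP list (columns) with a summit in the body or within 50 kb of each gene (rows, with the length of the window). RBBP4 gives or shares the highest count at 8 of 10 genes, and RBBP7 gives the highest at Cxcr4.

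By list, in the order CHD4-labelled, HDAC1-labelled, HDAC2-labelled, MBD3, RBBP4 and RBBP7, the ligand gene Slit1 had 5, 0, 3, 2, 10 and 9 peaks and Slit2 5, 5, 0, 1, 5 and 3. In the same order Robo1 had 11, 9, 4, 9, 27 and 13 and Robo2 10, 6, 2, 11, 26 and 23. Dcc had 6, 5, 3, 5, 17 and 7. RBBP4 is the longest list, with 29762 of all 91480 ChIP peaks and 123 of the 392 at these genes. Slit2 had 5 peaks each in the CHD4-labelled, HDAC1-labelled and RBBP4 lists. Nrp1 had 5, 4, 2, 4, 6 and 6 peaks and Nrp2 6, 1, 0, 3, 5 and 2. Erbb4 had 10, 6, 3, 10, 16 and 16 and Epha5 7, 5, 1, 4, 7 and 6. At Erbb4, Nrp1 and Cxcr4 RBBP7 peaks were at least as many as those of any other list.

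Per 100 kb of window the order was another. Cxcr4 was densest with 14.4 peaks of the 6 lists together, then Slit1 with 11.6 and Nrp1 with 10.9. Dcc was sparsest with 3.59, below the median of 3.80 over genes of 100 kb or longer, and the other 8 long genes were above it. Slit1 and Nrp1 were denser than 94.9% and 94.1% of the long genes, and Dcc denser than 47.4%. Pooled over the 10 windows (6.86 Mb) there were 5.72 peaks per 100 kb, against 4.20 over the long genes and 6.01 over all genes. The pooled densities differed by list: RBBP7 had 1.34 per 100 kb at the guidance genes, 0.753 at long genes and 0.679 over all genes. In the same order RBBP4 had 1.79, 1.35 and 1.89, and the HDAC2-labelled list 0.263, 0.245 and 0.353.

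**Figure D3:**
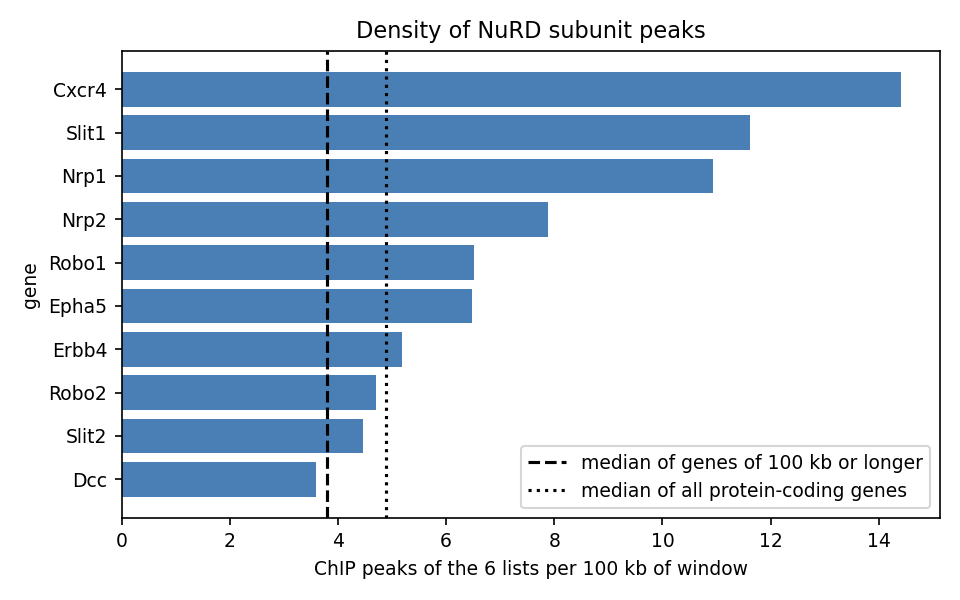
Peaks of the 6 ChIP lists per 100 kb of window (horizontal axis) for each gene; the dashed line is the median of 2406 genes of 100 kb or longer (3.80) and the dotted line that of all 20953 protein-coding genes (4.89). Dcc is the 1 bar that ends left of the dashed line.

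Cxcr4 had more RBBP7 peaks than peaks of any other list. It had 7 RBBP7 peaks, 4 of RBBP4, 3 of the CHD4-labelled list and 1 of the HDAC1-labelled list. Of its 10 merged regions 5 were RBBP7 alone, and 12 of the 15 peaks lay outside this short gene. Robo2 had 23 RBBP7 and 26 RBBP4 peaks and 13 regions of RBBP7 alone, against 3 such regions at Robo1. At Dcc the balance was the other way, with 17 RBBP4 peaks and 7 of RBBP7, and 10 of 22 regions were RBBP4 alone.

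Overlapping peaks of the 6 lists merged into 180 regions at the guidance genes, of 38813 in all. Of the 180, 101 (56.1%) held 1 list, against 48.1% of all merged regions, and 7 (3.89%) held all 6, against 3.93%. The share with all 6 lists was thus near the background. Among the regions of 1 list, 43 were RBBP4, 39 RBBP7, 16 the CHD4-labelled list, 2 the HDAC1-labelled list and 1 the HDAC2-labelled list. Every MBD3 region, 47 of 47, held another list too (95.8% over all MBD3 regions). RBBP7 alone made up 21.7% of the regions at the guidance genes and 12.54% of all, and RBBP4 alone 23.9% and 23.6%. RBBP4 and RBBP7 were set against the same input library, per the labels.

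**Figure D4:**
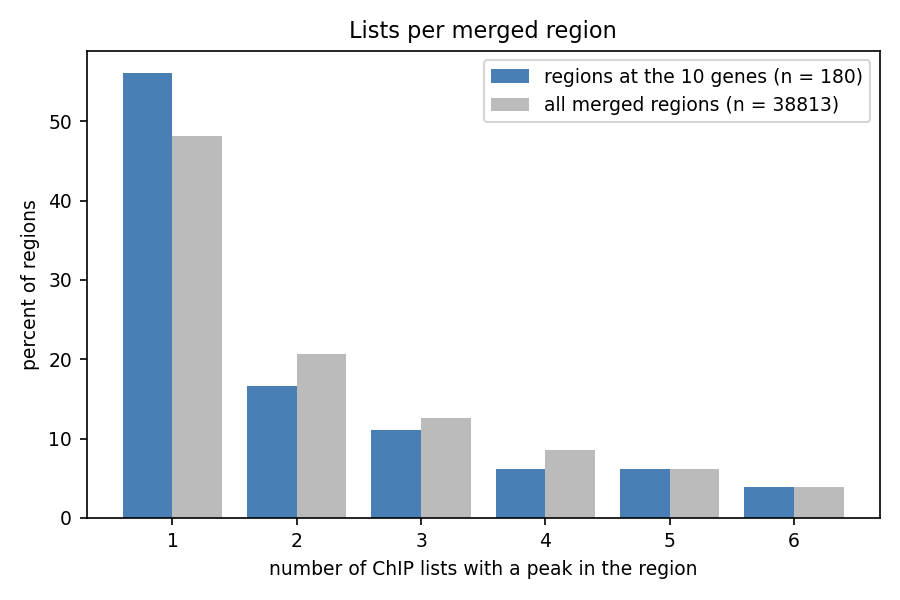
Percent of merged regions (vertical axis) by the number of ChIP lists with a peak in the region (horizontal axis), at the 10 guidance genes (180 regions) and over the genome (38813 regions). Regions of 1 list are 56.1% against 48.1%, and regions of all 6 lists 3.89% against 3.93%.

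The 7 regions of all 6 lists lay at 5 genes: Robo1 and Nrp1 with 2 each and Robo2, Dcc and Erbb4 with 1 each. Of all genes 10.9% had such a region in their window, and of long genes 20.3%. Neither share adjusts for window length, which was 1655 kb at Robo2, 1198 kb at Dcc, 1177 kb at Erbb4, 1120 kb at Robo1 and 247 kb at Nrp1. In every list the highest value of the 7 was at 1 or the other of the pair at Robo1, though the first of them had the lowest HDAC1-labelled value. The region at 72510350 to 72511808 on chromosome 16 had fold enrichments of 19.4 in RBBP7, 11.9 in MBD3, 11.3 in the CHD4-labelled list, 9.58 in RBBP4, 7.64 in the HDAC2-labelled list and 4.08 in the HDAC1-labelled list. Its RBBP7 peak ranked 38th of 14918. The second, at 72698799 to 72699985, 36.2 kb downstream of the listed start, ran from 7.28 in the HDAC1-labelled list to 14.2 in RBBP7. It was the 1 region of the 7 in which every list had a −log10 q of at least 10.

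Of the other regions of all 6 lists, those at Nrp1 and Robo2 named above lay at starts. A second one at Nrp1 lay 23.6 kb beyond the far end of the gene (chromosome 8, 128528444 to 128529691, with 10.8 in RBBP7 as its highest fold enrichment and 3.37 in the HDAC2-labelled list as its lowest). That of Erbb4 lay inside the gene, 15.2 kb from the end opposite its start (chromosome 1, 68046546 to 68047625, 4.39 to 7.14). That of Dcc lay inside the gene as well (chromosome 18, 71975023 to 71976174, 5.33 to 9.51). Slit1, Slit2, Nrp2, Cxcr4 and Epha5 had none, though Epha5 had 3 regions of 5 lists and Slit1 and Nrp2 1 each.

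Several RBBP7 peaks away from starts ranked high in their own list, whose median fold enrichment was 6.20. Over all 92 RBBP7 peaks at the guidance genes the median was 6.68. Of these, 33 (35.9%) lay at the 75th percentile of the list or higher. That share was 38.9% in the HDAC2-labelled list, 34.7% in MBD3, 27.6% in RBBP4, 21.4% in the HDAC1-labelled list and 14.7% in the CHD4-labelled list. Medians were below those of the whole list in all lists but RBBP7 and MBD3, as with 4.91 against 5.64 in the CHD4-labelled list. The RBBP7 peaks named next are each the highest of their gene. Epha5 held the third highest of all 14918 RBBP7 peaks, 264 kb downstream of its start and inside the gene (chromosome 5, 84152922 to 84154098), with a fold enrichment of 32.0. In the same region RBBP4 had 8.45, MBD3 6.95, the HDAC1-labelled list 5.04 and the CHD4-labelled list 4.29, and the HDAC2-labelled list had no peak. Erbb4 held an RBBP7 peak of 19.6 (rank 35) 61.3 kb downstream of its start and Robo2 one of 17.1 (rank 90) 356 kb downstream of its inner start. Slit2 had its highest RBBP7 peak (12.4) 66.2 kb downstream of it. Of the 55 highest peaks per gene and list, 14 reached within 1 kb of a start.

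Most peaks lay away from the starts. The share at a start was 23.5% of the CHD4-labelled peaks at the guidance genes (63.4% of that whole list at the start of any protein-coding gene), 31.0% of the HDAC1-labelled (62.4%), 18.4% of MBD3 (47.8%), 11.1% of the HDAC2-labelled (40.7%), 8.94% of RBBP4 (38.7%) and 6.52% of RBBP7 (19.3%). Each list had a lower share at the guidance genes, but the shares are unlike measures. At the guidance genes only the starts of the gene itself were counted, in mostly long windows, and for the whole list the starts of all genes. The difference can therefore not be read as a trait of these genes. At starts the median fold enrichment of the CHD4-labelled peaks was 6.10, against 4.70 elsewhere at the same genes. It was also higher at starts in the HDAC1-labelled list (5.27 and 5.04), the HDAC2-labelled list (5.06 and 4.19) and RBBP4 (5.59 and 4.71). It was lower at starts in RBBP7 (5.30 and 6.78) and MBD3 (4.59 and 5.07). These medians rest on 2 to 16 peaks at starts.

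KO-higher FTneg regions lay in the windows of 4 of the 10 genes: Dcc had 2 and Robo1, Slit2 and Nrp1 had 1 each. Over all protein-coding genes 3.40% had such a region in their window, and over genes of 100 kb or longer 10.1%. All 4 genes are long, so the latter share is the nearer one to set beside 4 of 9. It does not adjust for window length, which was 1198 kb at Dcc, 1120 kb at Robo1, 426 kb at Slit2 and 247 kb at Nrp1. Per 100 kb of window, pooled over the 10 genes, there were 0.0729 KO-higher FTneg regions. The density was 0.0341 over the long genes and 0.0260 over all genes, and the difference was not tested. None of the 10 genes had a WT-higher FTneg region, as 0.215% of all genes and 0.665% of long ones did. None had a KO-higher FTpos region (0.157% and 0.166%) or a WT-higher FTpos region (0.148% and 0.416%). The ligand Slit1 and the receptors Robo2, Nrp2, Cxcr4, Erbb4 and Epha5 had no region of any list.

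The 5 regions all lay inside their gene and none at a start. The size of each is the authors' area, the sum under −log10 p across the region, with a minimum of 500. Nrp1 had the highest area (chromosome 8, 128417799 to 128418842, area 1600, rank 36 of 727), 59.4 kb downstream of the start. Slit2 came next (chromosome 5, 48081182 to 48081772, area 1203, rank 99), 98.4 kb downstream of the start. At Robo1 the region (chromosome 16, 72510512 to 72511466, area 847, rank 230) lay in the annotated gene body, upstream of the listed start, 483 kb from the lower-numbered end of the gene. The 2 regions of Dcc were smaller (chromosome 18, 71662806 to 71663439, area 645, rank 435, and 71951318 to 71951816, area 564, rank 577), the second of them above only 20.8% of the list. The median area of the list was 704, so Nrp1, Slit2 and Robo1 were above it and both Dcc regions below.

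Of the 5 KO-higher regions 4 overlapped a NuRD subunit peak (80.0%, exact 95% binomial interval 28.4 to 99.5, which covers counting error only), as did 71.3% of all 727. The Robo1 region carried all 6 lists, as did 13.1% of all KO-higher FTneg regions, and it coincided with the first Robo1 region of all 6 lists described above. The Nrp1 region carried the CHD4-labelled list (6.93), RBBP4 (5.15) and the HDAC1-labelled list (4.76), with the nearest summit 14 bp from its own. At Slit2 RBBP4 alone was present (4.49, summit 9 bp away), and so it was at the first Dcc region (4.74, 115 bp away). The second Dcc region had no peak, the nearest summit being 23691 bp away in the region of all 6 lists. RBBP4 was thus at 4 of 5 (66.0% of the whole list), and RBBP7, at 43.3% of the whole list, was at Robo1 only. The other 6 regions of all 6 lists at guidance genes overlapped no region of differing accessibility.

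**Figure D5:**
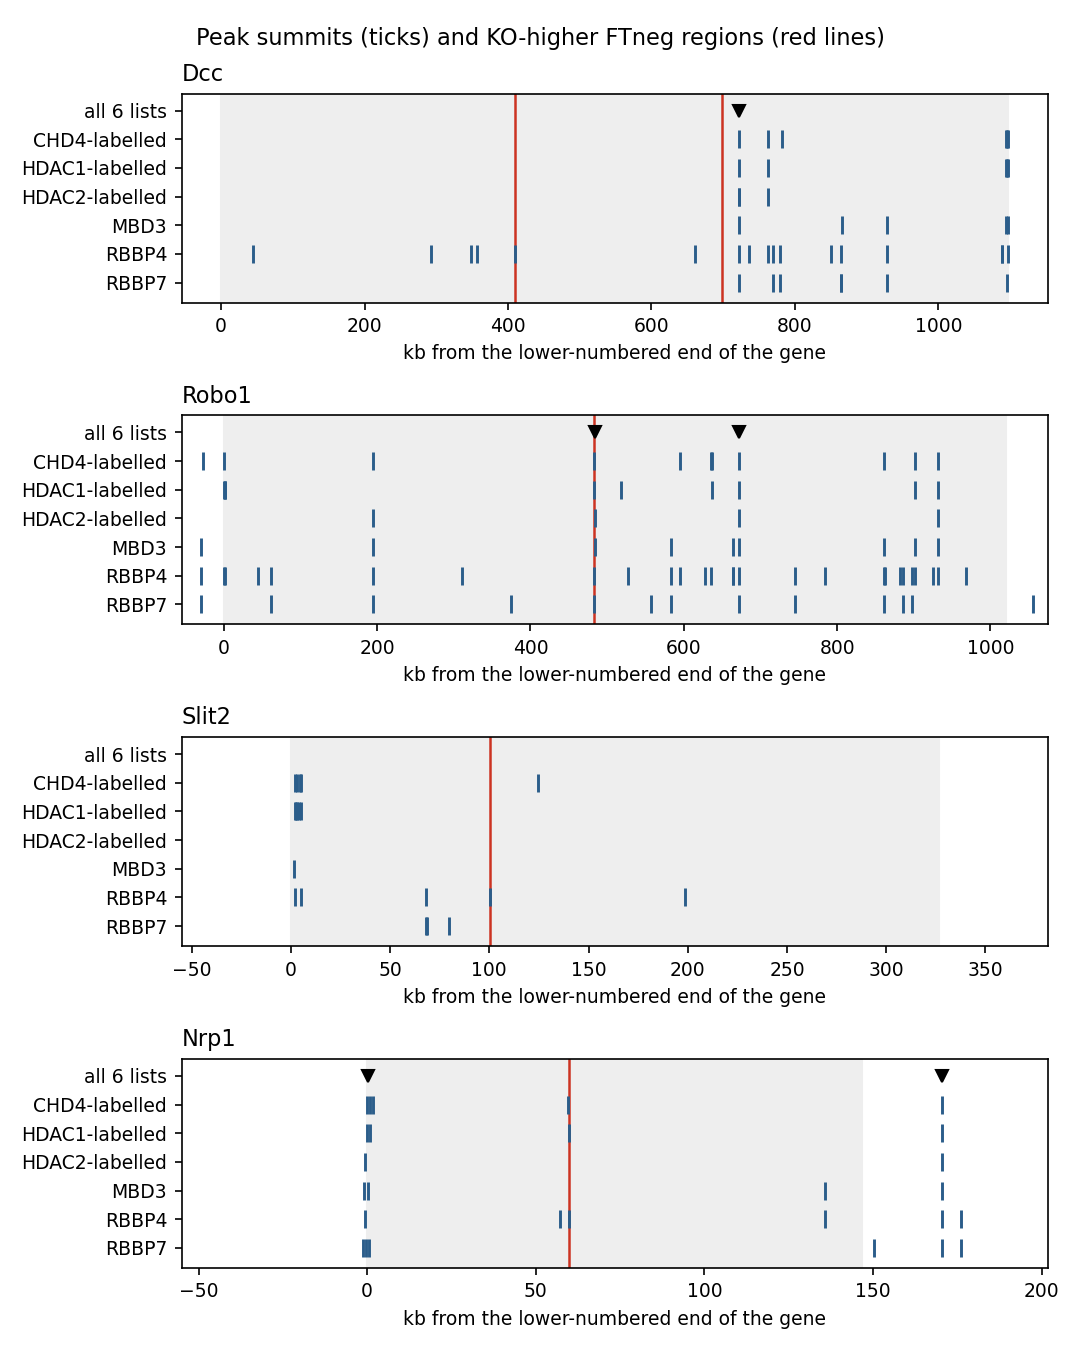
Summits of the ChIP peaks (blue ticks, 1 row per list) and KO-higher FTneg regions (red lines) along Dcc, Robo1, Slit2 and Nrp1, in kb from the lower-numbered end of the gene; grey marks the gene body and triangles mark regions of all 6 lists. The red line of Robo1 runs through a triangle, that of Nrp1 lies 59.8 kb into the gene, and the second line of Dcc meets no tick.

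Nrp2, a gene known to be repressed by DLX1 and DLX2, had no accessibility region in its window. Its nearest KO-higher FTneg region was 184 kb from the gene, with an area of 848. The nearest one to Cxcr4 was 446 kb away, to Erbb4 666 kb, to Slit1 1164 kb, to Robo2 1381 kb and to Epha5 6216 kb. No level of expression was measured, so these distances say nothing of the activity of the genes. All 6 CHD4-labelled peaks of Nrp2 lay in the 3.95 kb after its start (fold enrichment 2.97 to 4.39). A region of 5 lists lay 3.18 kb downstream of the start (chromosome 1, 62705373 to 62707617).

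Other genes of the same pathways were followed in 5 lists of 69 genes. Of these, 6 had a KO-higher FTneg region in their window (8.70%, against 3.40% of all genes and 10.1% of genes of 100 kb or longer): 3 of 15 ephrin and Eph genes (Epha3, Epha7 and Efna5), 2 of 20 semaphorin and plexin genes (Sema3c, and Sema3b, whose region is nearer to Gnai2) and 1 of 5 further Slit and Robo pathway genes (Srgap3, a GTPase-activating protein that binds ROBO). None of the 10 netrin pathway genes and none of the 19 chemokine, neuregulin and reelin genes had one. Epha7, an ephrin-A receptor like Epha5, was the 1 gene of the 69 with 2 (chromosome 4, areas 577 and 1078), as Dcc had. No gene of the 69 had a WT-higher FTneg or KO-higher FTpos region, and Plxna2 had a WT-higher FTpos region (area 517).

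The ephrin and Eph genes were also the list with most NuRD peaks. All 15 had a peak of each of the 6 lists in their window, and their median was 15.6 peaks per 100 kb, against 5.95 for the netrin pathway, 7.30 for the Slit and Robo pathway, 6.92 for semaphorins and plexins and 4.70 for the chemokine, neuregulin and reelin genes. The densest of the 15 were short genes: Efna2 (10.5 kb) had 42.5 peaks per 100 kb, Efna1 (9.22 kb) 30.2 and Efnb3 (7.06 kb) 28.0. Their windows are mostly flank and can hold peaks of neighbouring genes. Over all genes a peak of a given list in the window was found at 33.6% (HDAC2-labelled list) to 77.0% (RBBP4), and over long genes at 47.3% to 94.1%. The share of all genes with a peak of each of the 6 lists in the window was not counted. A region of all 6 lists was found at 8 of the 15 and at 21 of the 69, against 10.9% of all genes and 20.3% of long ones. A peak of any list was at the start of 61 of the 69, against 58.9% of all genes. All 6 lists were at the start of 11 of the 69, against 3.25% of all genes. Of the 7 KO-higher FTneg regions near the 69 genes 5 overlapped a NuRD peak, against 71.3% of the whole list. That of Epha3 carried all 6 lists, as that of Robo1 did (chromosome 16, 63805985 to 63806864, area 695), and that of Efna5 had none despite an area of 1484 (chromosome 17, 62740010 to 62740587, rank 52). Of all protein-coding genes, 74 had at least 2 KO-higher FTneg regions in their window as Dcc had (0.353%, and 1.58% of long genes), and Ctnna2 and Tcf12 had 4.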

How the data were processed

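BWA, deepTools, Genrich, MACS2 2.2.7.1 and SAMtools 1.10 are named, with build mm10, per the submitters' processing notes. Their settings are not given in the sources used here. The deposited ChIP lists, paired by the authors with input libraries per the labels and without blacklisted regions per the file names, give a fold enrichment (a ratio) and −log10 p and −log10 q per peak. The deposited accessibility lists give, as a score, the area under −log10 p, with a minimum of 500 per the file names. These values describe and rank peaks within a list. Read depth is unknown.

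From these lists summits were counted per gene window, peaks that overlapped or touched were merged, and overlaps of at least 1 bp were counted, with Python 3.11.15 and pandas 2.3.3, after checks on simulated data. All genes means 20953 protein-coding genes with a curated transcript on the autosomes and X (RefSeq, GRCm38.p6). The genes, gene lists and rules were chosen with earlier results of these data known. All 10 genes, every accessibility region and every region of all 6 lists in their windows were to be named, with further genes of 2 or more KO-higher regions. Those number 74, and only the 2 with most are named beside Epha7. The search for TATAAA was added after the data were seen. Promoters of Dcc and Slit1 and sequence under peaks were not used here.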

Additional observations from a re-analysis of the deposited data

How the results depend on the processing

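Of 49 alternative values for the counts above, 38 stayed within 1.5 times the value given. A count of 0 was held to have stayed if it was 0 again. The share with a NuRD peak was held to have stayed within its wide interval, 28.4 to 99.5. With a −log10 q minimum of 10 for ChIP peaks, peaks at the guidance genes fell from 392 to 173, merged regions from 180 to 98 and regions of all 6 lists from 7 to 1, that of Robo1 downstream of its listed start. With ChIP lists of equal length the values were 138, 72 and 3, and 1 of 5 KO-higher FTneg regions (20%) overlapped a peak. Both settings admit fewer peaks. With a summit of each other list required within 250 bp of a CHD4-labelled summit, in place of overlap, 4 regions of all 6 lists were counted. Those at the starts of Nrp1 and Robo2 and that of Erbb4 were not among them. At an area of at least 1000, 2 KO-higher FTneg regions at 2 genes (Nrp1 and Slit2) were left, both with a NuRD peak (100%). Without the RBBP4 list 2 of 5 (40%) had one, at Robo1 and Nrp1. Windows of the gene body, of 100 kb or by nearest gene gave 340 to 501 peaks and 5 to 7 KO-higher FTneg regions at the same number of genes, 4. The start count was 9 or 10 of 10 under the settings planned and 8 with either annotated end in place of a listed start, an alternative chosen after seeing the data. WT-higher FTneg and FTpos regions stayed at 0 under the 3 windows and the area of at least 1000. The gene body and the area minimum can only remove regions, so only the windows of 100 kb and by nearest gene could have changed these counts. No paired analysis was possible because the embryos are combined in each accessibility list and each ChIP target has 1 library.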

Other observations

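The longest stretch without a NuRD subunit summit differed among the megabase genes. Such stretches were not measured at other long genes, and whether the peaks are spread unevenly was not tested. The longest stretch of Robo2 without a summit of any ChIP list was 556 kb (chromosome 16, 74785616 to 75341928), 35.8% of the gene, between its inner start and its outermost start. In Erbb4 the longest such stretch was 177 kb (16.5% of the gene), in Robo1 133 kb (13.0%) and in Dcc 251 kb (22.9%). The stretch in Dcc began at the RBBP4 summit under its first KO-higher region. The stretch in Robo2 held the middle one of its 3 listed starts.

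Beyond the 50 kb window 2 further KO-higher FTneg regions had Dcc as their nearest protein-coding gene, 374 and 598 kb from its high-numbered end (chromosome 18, 72724989 to 72726291 and 72948931 to 72950123). Their areas, 1106 and 1365, were above those of both regions inside the gene, and they carried 6 and 4 ChIP lists where the inner ones carried 1 and 0. None of the other 9 genes gained a region this way.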
